A study of Mus musculus with 16 samples.

Results

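The comparison described here is between mouse embryonic fibroblasts (MEF) that lack CHOP and wild-type fibroblasts, both without proteasome inhibitor. Its members are 4 arrays of CHOP-/- cells and 4 arrays of wild-type (WT, CHOP+/+) cells, 8 of the 16 arrays of the series, chosen by their titles. The comparison was made across autosomal genes, each represented by one probe set that names that gene alone, the one with the highest mean signal over all 16 arrays. Of 17401 autosomal genes with such a probe set, 11039 passed the filter on low signals and were tested.

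Both genotypes were grown in DMEM with 10% fetal bovine serum, and each array was hybridised with RNA of a 10 cm plate. The untreated plates are labelled as having had no treatment, whereas their descriptions name the vehicle DMSO for 8 hours. The other 8 arrays, 4 per genotype, came from plates exposed for 8 hours to 1 µM MG132, which blocks the proteasome, and the genotype difference is also given between them. The labels give neither the strain of the mice, the passage of the cells and the deleted segment of the gene, nor whether plates of a genotype trace back to separate embryos. The p-values therefore measure variation between plates, which may be technical, and a difference between genotypes cannot be told apart from a difference between fibroblast isolates.

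CHOP is encoded by Ddit3 and belongs to the C/EBP family of transcription factors. It binds DNA as a heterodimer with other leucine zipper proteins. In unstressed cells it is made at a low level. When unfolded proteins accumulate in the endoplasmic reticulum (ER), it is induced through the kinase PERK, phosphorylated eIF2α and the transcription factor ATF4. Phosphorylated eIF2α and ATF4 also induce it when amino acids run short. It is best known for promoting cell death and restoring protein synthesis after prolonged stress, and for interfering with C/EBP factors during fat cell differentiation.

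Signals are given as deposited, on the linear scale of the MAS5 algorithm, with each array scaled to the same trimmed mean. Differences are CHOP-/- minus WT on the scale log2(signal + 16), with the standard error (SE) of the limma fit and a p-value adjusted by the Benjamini-Hochberg (BH) method over all genes tested. "Higher", "lower", "rose" and "fell" mean an adjusted p of at most 0.05. Adding 16 compresses the change of genes near background. Levels of different genes are not compared, because probe sets differ in how strongly they bind.

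Ddit3 itself fell in the cells labelled CHOP-/-. Its signals were 887, 1054, 998 and 1127 on the WT arrays and 382, 352, 393 and 343 on the CHOP-/- arrays, so the groups did not overlap. The difference was -1.43 (SE 0.09, adjusted p = 1.8e-11), and between the MG132 arrays, where the WT mean was 7724 and the CHOP-/- mean 396, it was -4.23. A second probe set for Ddit3 gave 258 ± 66.9 in WT and 256 ± 47.4 in CHOP-/- cells (SD, n = 4 each), and the average over both probe sets differed by -0.71. The labels do not place these probe sets inside or outside the deleted segment, so the signal left in CHOP-/- cells says nothing about the allele. Fewer cells that express a gene and less RNA of it per cell cannot be told apart, for Ddit3 or any gene below.

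The arrays of a genotype resembled each other closely. Across the tested genes, log2 levels correlated at 0.985 to 0.990 among WT arrays, 0.990 to 0.992 among CHOP-/- arrays and 0.920 to 0.928 between genotypes, as a description over genes that share arrays. Median signals were 90.1 to 106.5 in WT and 91.7 to 102.7 in CHOP-/- cells, and the ratio of the 3' to the 5' probe set of Actb, a sign of RNA integrity, was 1.11 to 1.19 and 1.14 to 1.16. The genotypes differed in sex-linked transcripts. Xist, the RNA that silences an X chromosome in female cells, read 245, 306, 336 and 302 in WT and 11341, 9161, 11033 and 9809 in CHOP-/- cells, whereas the Y-linked Eif2s3y averaged 4714 in WT and 11.1 in CHOP-/- cells, at -7.54 (-4.35 as an average of its probe sets). Uty and Kdm5d, also Y-linked, differed by -4.40 (-2.73 as an average of its probe sets) and -2.89 (-1.02 as an average, -4.59 with 1 and -1.58 with 64 added). The difference in these transcripts and the difference in genotype cannot be told apart, and their part in the autosomal results was not tested.

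Markers of fibroblasts were present in both genotypes, although several differed strongly. Of 17 fibroblast genes tested, 6 were higher and 8 lower in CHOP-/- cells, against 28.6% and 26.9% of all tested autosomal genes. The summed signal of the list was 180656 to 207435 in WT and 175286 to 190602 in CHOP-/- cells. Vim, the mesenchymal intermediate filament, did not pass the test, at 0.05 (SE 0.06), nor did the collagen gene Col1a2 at 0.08. The platelet-derived growth factor receptor gene Pdgfra read 2656, 2075, 2312 and 2363 in WT and 119, 101, 178 and 75.3 in CHOP-/- cells, a difference of -4.19 (SE 0.17, adjusted p = 1.6e-14; -2.74 when all its probe sets were averaged). The surface glycoprotein gene Thy1 went the other way, from 245, 206, 212 and 247 to 2582, 2912, 2607 and 2807, at 3.50 (SE 0.09, adjusted p = 1.3e-17). Both genes are used to identify fibroblasts, and the groups overlapped for neither.

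Markers of other cell types were near background in part, and less so in the neural list. Of 15 genes of macrophages and leukocytes, 10 lay below the array median on all 8 arrays. Of 4 tested 2 rose, against 28.6% of all tested autosomal genes: Cd14 by 1.71, and Cd74 by 0.70 with overlapping groups. Cd68 (-0.13) and Csf1r (-0.17) did not pass the test. The summed signals of the whole list were 1009 to 1249 in WT and 1758 to 2014 in CHOP-/- cells. Cd14 alone averaged 310 in WT and 1054 in CHOP-/- cells, so the sums mostly follow this gene. Of 15 epithelial genes 8 lay below the median throughout, and the summed signal was 7439 to 8397 in WT and 4455 to 5046 in CHOP-/- cells. Of 12 neural genes with a probe set, only 3 lay below the median throughout. Of 8 tested, Sox2, Stmn2, Map2 and Tubb3 were lower in CHOP-/- cells. The sum of the neural list was 10150 to 11151 in WT and 2179 to 2528 in CHOP-/- cells. The fat cell sum was 1131 to 1263 in WT and 417 to 536 in CHOP-/- cells. The sums of endothelial genes (624 to 880 and 634 to 856), of cartilage and bone genes (357 to 683 and 420 to 676) and of skeletal muscle genes (1744 to 2170 and 1372 to 1813) overlapped. Single members were called all the same. In the endothelial and in the cartilage and bone list 1 of 3 tested rose. In the muscle list 2 of 7 rose and 1 fell, with Tnnt2 at 3.15 (1.73 as an average of its probe sets) and Acta1 at -1.26. In the placental and red cell list 1 of 3 rose and 1 fell. For the placental and red cell list the sums were 340 to 550 and 306 to 383, and for the embryonic stem cell list, where only Sox2 changed, 1999 to 2215 and 475 to 716. The part of other cells in the gene results was not tested.

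More genes differed between these unstressed cultures than did not. Of the 11039 autosomal genes, 6129 (55.5%) were called, 3156 higher (28.6%) and 2973 lower (26.9%) in CHOP-/- cells. In 5489 genes (49.7%) the 4 signals of one genotype all lay above the 4 of the other. Most calls were small: 3799 of them (62.0%) were under 1.5-fold, and the median absolute difference over all tested genes was 0.27, around a median of 0.01. At least 2-fold, 570 genes were higher (5.16%) and 609 lower (5.52%), and 77 and 83 reached 8-fold. The counts for gene groups above and below are read against these shares of all genes.

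**Figure D1:**
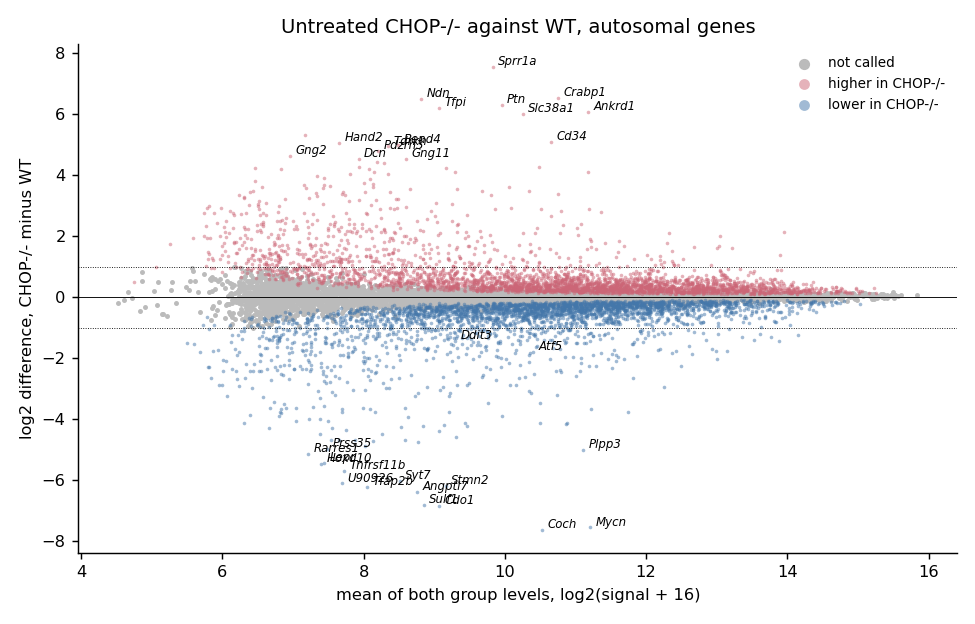
Each point is an autosomal gene tested in untreated cells, with the mean of both group levels as log2(signal + 16) on the x axis and the log2 difference of CHOP-/- minus WT on the y axis; red and blue mark genes called higher (3156) and lower (2973), dotted lines mark 2-fold. The named genes are the leading differences in each direction with Ddit3 (-1.43) and Atf5 (-1.79), and the points spread about evenly around 0.

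The strongest rises were of genes with low signals in WT cells and strong signals in CHOP-/- cells. Sprr1a, a cornified envelope protein that is also induced in stressed and regenerating cells, read 9.54, 54.5, 91.4 and 63.4 in WT and 11550, 11457, 12129 and 11662 in CHOP-/- cells, a difference of 7.55 (SE 0.28, adjusted p = 6e-15). With 1 or 64 added to the signals in place of 16 the difference was 8.08 or 6.68. Crabp1, which binds retinoic acid in the cytosol, read 129, 214, 146 and 165 in WT and 16333, 16221, 17518 and 15747 in CHOP-/- cells, at 6.54 (SE 0.13, adjusted p = 4.2e-19). The imprinted gene Ndn, whose product necdin restrains cell growth, read 42.4, 28, 26.6 and 29.1 against 4612, 3889, 4489 and 3975, at 6.49 (SE 0.15). In all these genes the groups were far apart compared with their spread. The genes were chosen for large differences between groups that did not overlap, so this separation follows from the choice and is not a separate result.

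Secreted and surface proteins followed. Ptn, the heparin-binding growth factor pleiotrophin, read 117, 100, 83.7 and 81.4 in WT and 9215, 8336, 9587 and 8073 in CHOP-/- cells, at 6.31 (SE 0.12). Tfpi, the inhibitor of the tissue factor pathway of coagulation, differed by 6.21 (SE 0.35), and Cd34, a sialomucin of progenitor and stromal cells, read 309, 218, 228 and 287 against 8610, 9647, 9697 and 9475, at 5.10 (SE 0.08). Ankrd1, a nuclear and sarcomeric protein that responds to stretch and YAP activity, read 280, 269, 339 and 183 against 18504, 19120, 19288 and 18720, at 6.09 (SE 0.11). The amino acid transporter gene Slc38a1 rose from 137 to 9700 on average, at 6.002 (SE 0.09, adjusted p = 9.7e-21). The rest of the 15 highest were Hand2, Bend4, Tdrkh, Pdzrn3, Gng2, Dcn and Gng11, with differences from 5.07 down to 4.52. Dcn encodes decorin, a small proteoglycan that binds collagen, and Gng2 and Gng11 encode γ subunits of heterotrimeric G proteins. Averages over all probe sets of a gene gave smaller differences for Ndn (3.83), Hand2 (2.18), Dcn (2.06) and Pdzrn3 (2.53).

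**Figure D2:**
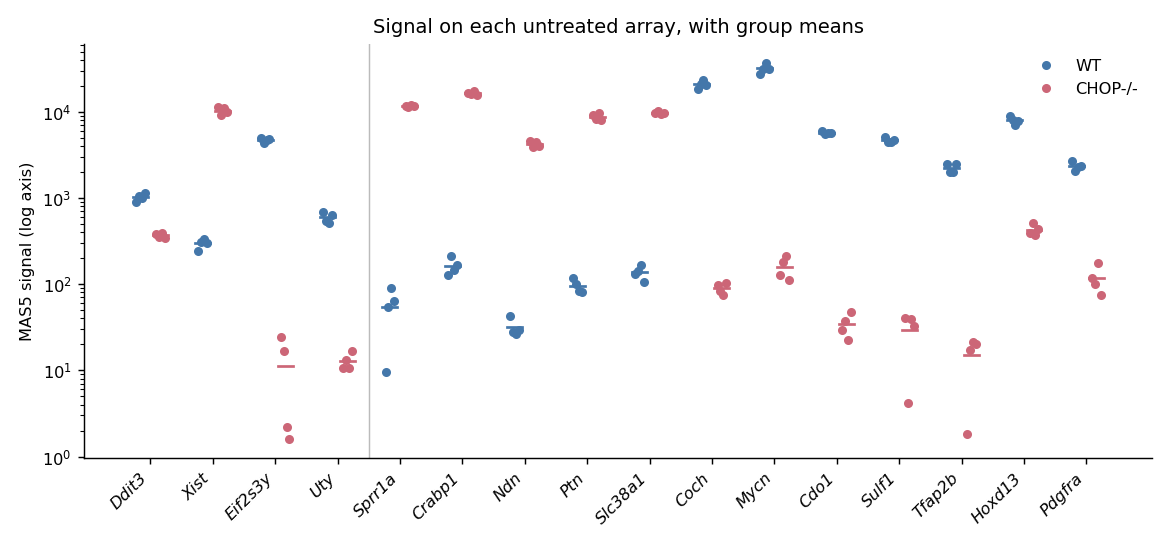
MAS5 signal on each of the 8 untreated arrays, on a log axis, for Ddit3, 3 sex-linked transcripts left of the grey line, and leading autosomal genes right of it; each point is an array (WT blue, CHOP-/- red) and each bar the mean of 4. The 2 genotypes are separated in every gene shown, and the leading autosomal genes were chosen for such separation. In Coch and Mycn the WT arrays lie at or above 18564 and the CHOP-/- arrays at or below 211.

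The strongest falls were of Coch and Mycn. Coch, which encodes the matrix protein cochlin, read 18564, 20947, 23227 and 20538 in WT and 96.4, 83.4, 75.6 and 102 in CHOP-/- cells, a difference of -7.63 (SE 0.11, adjusted p = 3.5e-21). Mycn, the MYC family transcription factor that keeps limb and neural progenitors dividing, read 27713, 31362, 36981 and 31722 against 127, 183, 211 and 110, at -7.56 (SE 0.21, adjusted p = 4.3e-17), and at -1.91 when all its probe sets were averaged. Cdo1, the enzyme that oxidises cysteine, read 5995, 5514, 5599 and 5618 against 29.8, 37.7, 22.7 and 47.5, at -6.84 (SE 0.16). Sulf1, which removes sulfate from heparan sulfate at the cell surface, read 5140, 4517, 4515 and 4698 against 40.4, 4.13, 39.3 and 32.6, at -6.82 (SE 0.23; -4.43 as an average of its probe sets).

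Of the other genes among the 15 lowest, Tfap2b (-6.22) encodes an AP-2 transcription factor of neural crest and limb, Stmn2 (-6.19) a neuronal microtubule regulator and Syt7 (-6.04) a calcium sensor of exocytosis. Angptl7 (-6.40), Tnfrsf11b (-5.69), whose product osteoprotegerin is the decoy receptor of RANKL, and Lepr (-5.45), the leptin receptor, act at the cell surface or outside the cell. Hoxd10 differed by -5.47, U90926 by -6.11, Rarres1 by -5.15, the lipid phosphate phosphatase gene Plpp3 by -5.02 and Prss35 by -4.98. As averages of their probe sets Syt7 stood at -4.08, Lepr at -3.74, Tnfrsf11b at -4.90, Stmn2 at -5.54 and Tfap2b at -5.85. Plpp3 remained measurable in CHOP-/- cells, at 298 to 437 against 10945 to 14268 in WT, while Tfap2b, Lepr, Rarres1 and U90926 read 27.6 or less on all 4 CHOP-/- arrays.

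A stricter rule picked genes that lay below the array median on all 4 arrays of one genotype and above the 75th percentile on all 4 of the other. Of 11039 tested genes, 14 were strong in CHOP-/- and weak in WT cells by this rule, and 18 the reverse. The first set was led by Sprr1a, Ndn, Hand2, Tdrkh, Pdzrn3, Dcn, Gng11 and Cela1 and the second by Cdo1, Sulf1, Angptl7, Tfap2b, Stmn2, U90926, Syt7 and Tnfrsf11b. Between the MG132 arrays, 4 of the 14 and 8 of the 18 met the rule as well. Detection calls were not used here, and a signal below the median does not show that a gene is silent.

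Genes that set position in the embryo were among those that differed most. Hox genes encode homeodomain factors that mark position along the body and limb axes, and their expression persists in cultured fibroblasts. Of 33 Hox genes with a probe set 19 were tested, and 10 were higher and 5 lower, with a median of 0.49. At least 2-fold, 7 and 5 changed, against 5.16% and 5.52% of all genes. This share depends on the filter, which keeps genes that are high in 1 genotype alone and drops genes low in both. Of the 33, 12 lay below the array median on all 8 untreated arrays. All 5 that fell belong to the Hoxd cluster. Hoxd13, which patterns the digits, read 8846, 8072, 6973 and 7808 in WT and 392, 506, 375 and 433 in CHOP-/- cells, at -4.17 (SE 0.09, adjusted p = 1.7e-18). Hoxd10 read 1281, 1084, 929 and 1111 against 7.57, 6.03, 6.25 and 18.4, and Hoxd8, Hoxd9 and Hoxd11 differed by -4.48, -4.06 and -4.003. These were the 5 Hoxd genes tested, and in each of them the groups did not overlap, against 49.7% of all genes without overlap. Hoxd8 and Hoxd10 lay below the array median on all 4 CHOP-/- arrays, so the limit of the filter applies to them.

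The Hox genes that rose belong to the Hoxa and Hoxb clusters. Hoxa5 read 212, 162, 174 and 206 in WT and 527, 572, 527 and 552 in CHOP-/- cells, at 1.46 (SE 0.12, adjusted p = 1.7e-09). Chosen after their values were seen, Hoxb2 (3.29), Hoxb6 (2.99), Hoxb9 (2.34), Hoxa4 (1.94), Hoxb3 (1.72) and Hoxa3 (1.25) also rose, from WT means of 9.24 to 52.6. Hoxb2 for example read 4.24, 13.3, 10.9 and 8.55 against 201, 234, 271 and 216. The distal genes of the Hoxa cluster gave small differences: Hoxa9 rose by 0.49 and Hoxa11 by 0.26, and Hoxa10 at 0.05 and Hoxa13 at 0.02 did not pass the test. Hoxc6, the Hoxc gene that was tested, stood at 0.12 and did not pass either. The same 5 Hoxd genes were lower between the MG132 arrays, with differences of -3.51 to -5.27, and 8 Hox genes were higher there.

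Other patterning factors split almost evenly, with 15 of 35 tested higher and 16 lower, 12 and 13 of them at least 2-fold. Of 49 with a probe set, 12 lay below the array median on all 8 untreated arrays, so the same limit of the filter holds. Among those that fell were the homeobox genes Msx1 and Msx2 of the limb bud and skull, at -4.14 (SE 0.15) and -4.69 (SE 0.14; -3.12 as an average of its probe sets), and Lhx9, a LIM homeobox gene of limb and gonad, which read 8893, 7813, 9130 and 7905 in WT and 674, 629, 651 and 658 in CHOP-/- cells, at -3.66 (SE 0.06). Lhx2 fell by 2.29 and Meis2 by 2.07 (-1.36 as an average). Tbx5, the T-box gene that marks the forelimb and heart, read 335, 406, 360 and 439 against 29.6, 3.98, 22.1 and 5.62, at -3.76 (SE 0.27, adjusted p = 2.5e-10).

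Hand2, a basic helix-loop-helix factor of heart and posterior limb bud, showed the largest rise of the list, from 2.23, 22, 20.5 and 34.2 to 1142, 1140, 1000 and 1167, at 5.07 (SE 0.30, adjusted p = 1.5e-11). Shox2, a homeobox gene of the proximal limb, rose by 1.84. Tbx4, the T-box gene of the hindlimb, was chosen after its values were seen: it read 90.9, 107, 122 and 89.1 in WT and 1368, 1472, 1413 and 1200 in CHOP-/- cells, at 3.55 (SE 0.22, adjusted p = 3.6e-11), and at 4.00 between the MG132 arrays. Pitx1, which acts upstream of Tbx4 in the hindlimb, stood at 178 and 156 on average and did not pass the test (-0.18). En1 (3.06) and Meis1 (2.71), chosen in the same way, also rose.

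**Figure D3:**
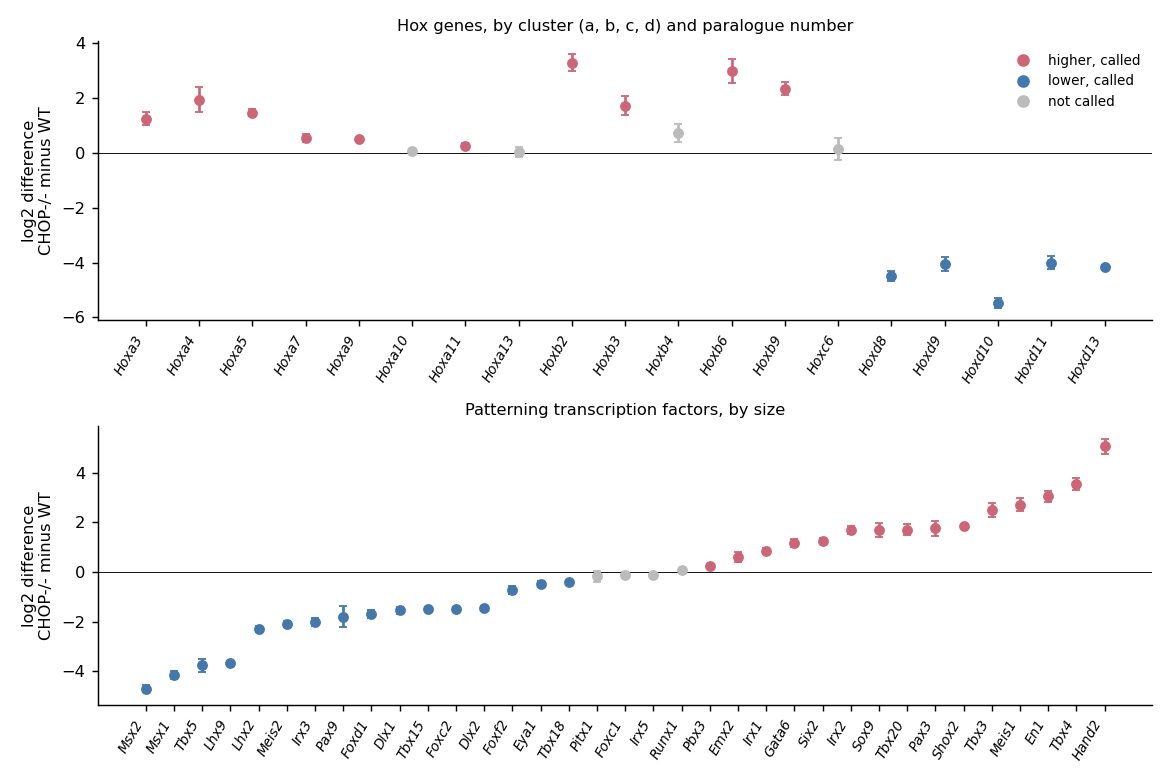
Points are log2 differences of untreated CHOP-/- minus WT cells with their SE (4 arrays per group) for the 19 tested Hox genes by cluster, above, and the 35 tested patterning factors by size, below; red and blue mark genes called higher and lower, grey those not called. The 5 Hoxd genes lie at or below -4.003 while no Hoxa or Hoxb gene was lower.

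Signalling genes of the bone morphogenetic protein (BMP) and TGF-β families were more often lower than higher in CHOP-/- cells. BMPs bind serine kinase receptors and act through SMAD proteins, whose best known targets include the Id genes. Of 29 genes tested, 16 fell and 6 rose, against 26.9% and 28.6% of all genes, with a median of -0.39. The ligand gene Bmp4 read 8816, 9264, 9334 and 8651 in WT and 1529, 1344, 1373 and 1409 in CHOP-/- cells, at -2.66 (SE 0.08, adjusted p = 1.8e-16). Bmp2 read 743, 744, 705 and 639 against 14.4, 31.4, 48.8 and 20.8, at -4.07 (SE 0.21). The intracellular inhibitor Smad6 fell by 1.98, the secreted BMP antagonist Grem1 by 1.47, and the Id genes Id2 and Id3 by 1.18 and 0.96. Id1 and Id4, chosen after their values were seen, fell by 0.88 and 2.17. Ligands, inhibitors and targets of the pathway were all among the genes that fell. Tgfbi, a matrix protein named for its induction by TGF-β and chosen in the same way as Id1, rose by 2.45. Between the MG132 arrays 21 members were lower and 5 higher.

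Wnt pathway genes showed a similar split, with 12 of 24 lower and 4 higher, and a median of -0.40. Wnt5a, a ligand of the β-catenin independent branch, read 1037, 797, 849 and 854 in WT and 55.3, 60.9, 67 and 43.1 in CHOP-/- cells, at -3.64 (SE 0.20, adjusted p = 4.5e-12; -2.29 as an average of its probe sets). Its receptor Ror1 rose by 2.39 (1.45 as an average). Ccn5 fell by 2.64 while Rspo2, which potentiates Wnt signals, fell by 1.81 (-0.77 as an average). The secreted antagonist Sfrp2 rose by 2.00 and Ccn4 by 1.49. Axin2, a widely used target of β-catenin, stood at 0.51 and did not pass the test.

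Growth factor and insulin-like growth factor (IGF) genes changed in both directions. Of 15 IGF genes 7 rose and 5 fell, and 6 and 2 did so at least 2-fold. Igf1 read 65.9, 67.3, 44.6 and 40.4 in WT and 1170, 811, 872 and 833 in CHOP-/- cells, at 3.74 (SE 0.26, adjusted p = 1.4e-10). Igf2 rose by 2.26 (1.20 as an average of its probe sets), the binding protein gene Igfbp7 by 4.27 (1.98) and the mRNA-binding protein gene Igf2bp3 by 2.90 (1.48 without suffixed probe sets). The binding protein gene Igfbp4 fell by 2.89 and Igfbp6 by 1.00. Among 28 other growth factors and receptors 10 rose and 11 fell. Pdgfra fell with its paralogue Pdgfrb (-1.34) and the epidermal growth factor receptor Egfr (-1.19; -0.60 as an average), as did the ligand genes Ereg (-1.84) and Kitl (-1.90), while the ligand gene Pdgfc rose by 1.37.

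Axon guidance genes, which also steer mesenchymal and vascular cells, were lower in 13 of 24 and higher in 7, with a median of -0.41. Sema3d (-4.31), Ntn4 (-3.15), Unc5c (-2.56) and Sema3a fell and the ephrin gene Efnb2 rose by 1.85. Of 17 adipogenic and retinoid genes 7 rose and 7 fell. Pparg, the master regulator of fat cells, fell by 1.69 and the retinoic acid receptor Rarg by 1.10, and Cebpa, at 0.13, did not pass the test. The fatty acid binding protein gene Fabp5 rose by 2.14 and the retinaldehyde dehydrogenase gene Aldh1a1 by 4.24, from signals of 2.06 to 7.96 in WT to 333 to 380 in CHOP-/- cells (2.66 with 64 added). Dlk1, an inhibitor of fat cell differentiation, rose from 54.6, 93.8, 95.5 and 98.2 to 1057, 1271, 933 and 1045, at 3.45 (SE 0.17; 2.09 as an average of its probe sets).

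Dlk1, Ndn, Igf2 and Dcn are imprinted in at least some tissues, that is, expressed from the allele of one parent. Of 16 imprinted genes tested 8 were higher and 3 lower, against 28.6% and 26.9% of all genes, with a median of 0.51. At least 2-fold, 7 were higher, against 5.16% of all genes. Of 26 with a probe set, 5 lay below the array median on all 8 untreated arrays. The filter keeps genes that are high in 1 genotype alone, so these shares and the median depend on it. Slc38a4, an amino acid transporter, rose by 1.24, and Plagl1, a zinc finger factor that restrains growth, fell by 2.43 (-1.49 as an average of its probe sets). Grb10, an adaptor that dampens insulin receptor signalling, fell by 0.66.

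Extracellular matrix genes changed in both directions. Collagens gave 8 higher and 7 lower of 18 tested, with a median of 0.05 that was -0.02 after quantile normalisation. The basement membrane chains Col4a1 and Col4a2 rose by 1.68 and 1.25 and Col3a1 by 1.22, whereas Col12a1 fell by 2.30 (-1.10 as an average of its probe sets), Col5a1 by 0.89 and Col1a1, the main chain of fibrillar collagen, by 0.82. Col1a1 read 17994, 20031, 18440 and 20663 in WT and 10401, 12569, 9458 and 11376 in CHOP-/- cells. Of 27 matrix glycoproteins, proteoglycans and crosslinking enzymes 13 rose and 10 fell, 9 and 7 at least 2-fold. Periostin (Postn) read 490, 510, 524 and 559 against 5824, 5283, 5633 and 5410, at 3.37 (SE 0.07, adjusted p = 6.3e-19). Tenascin C (Tnc), another matricellular protein of developing and healing tissue, rose by 2.90 and versican (Vcan) by 2.41 (1.02 as an average). Fbln5 fell by 1.70 and osteoglycin (Ogn) by 1.78.

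Of 19 matrix proteases and inhibitors 5 rose and 5 fell. The fall of Mmp14 (-1.41), a membrane-bound collagenase, went with falls of the inhibitors Timp3 (-1.90), Timp2 (-0.48) and Reck (-1.37), while the serpin gene Serpinf1 rose by 2.66 and the plasminogen activator Plat by 1.73 (1.14 as an average). Integrins and adhesion molecules gave 10 higher and 12 lower of 26. Besides Thy1, Alcam (3.56) and the glypican Gpc6 (2.43) rose, and Itga6 (-1.77), Itgb7 (-3.06) and Cav1 (-1.23), the scaffold of caveolae, fell. Itgb1, the shared β1 integrin subunit, rose by 0.24. Contractile genes of the serum response gave 6 higher and 7 lower of 17. The smooth muscle calponin Cnn1 rose by 2.11 and Actg2, a smooth muscle actin, fell by 1.42, and the myofibroblast actin Acta2 rose by 0.28 (0.63 as an average of its probe sets, 0.85 without suffixed ones).

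Partners and upstream regulators of CHOP were measured as well. Of 15 tested, 2 rose and 6 fell. Atf4, the activator of Ddit3, read 11007, 10116, 11961 and 12097 in WT and 16470, 18229, 16282 and 16830 in CHOP-/- cells, at 0.59 (SE 0.06, adjusted p = 2.1e-08). Cebpb, which encodes a dimerisation partner of CHOP, read 7838, 7745, 6707 and 7467 against 2880, 3451, 2928 and 3452, at -1.23 (SE 0.08). Nfe2l2, the antioxidant regulator NRF2, fell by 0.96. Of 12 genes reported as CHOP targets 4 rose and 7 fell, or 4 and 5 after median centring. Car6 (-0.90, near background) and Ero1a (-0.19) are among those that fell. Their calls were lost when limma was fitted to the untreated arrays only (adjusted p = 0.0803 and 0.0693). Chac1, which degrades glutathione, rose from 791, 1109, 1091 and 1096 to 2674, 2734, 2797 and 2843, at 1.43 (SE 0.08, adjusted p = 1.8e-12). Trib3, a pseudokinase that binds ATF4 and CHOP, rose by 0.40 (SE 0.07), from 608 ± 38.0 to 808 ± 68.8. Ppp1r15a, the phosphatase subunit GADD34 that reverses eIF2α phosphorylation, fell by 0.63 and the survival gene Bcl2 by 0.74 (-0.42 as an average). Atf5, a bZIP factor related to ATF4, read 3210, 2523, 1871 and 2462 in WT and 638, 691, 728 and 756 in CHOP-/- cells, at -1.79 (SE 0.12, adjusted p = 8.2e-11), and at -0.86 between the MG132 arrays. Genes named as CHOP targets thus lay on both sides of 0.

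Targets of ATF4 in the integrated stress response were mostly higher in CHOP-/- cells. Of 32 tested, 24 rose and 5 fell, against 28.6% and 26.9% of all genes, with a median of 0.51. The cystathionine lyase Cth, which makes cysteine, read 852, 949, 992 and 949 in WT and 4544, 4685, 4611 and 4422 in CHOP-/- cells, at 2.27 (SE 0.05, adjusted p = 2.4e-18). Amino acid metabolism was also represented by asparagine synthetase (Asns, 0.80), the alanine transaminase Gpt2 (1.71; 1.06 without suffixed probe sets) and the mitochondrial folate enzyme Mthfd2 (1.11). Stanniocalcin 2 (Stc2) rose by 2.17 and Ddit4, an inhibitor of mTORC1, by 1.27. Against this direction, Vldlr, the very low density lipoprotein receptor, read 4695, 4736, 5092 and 4677 in WT and 454, 310, 459 and 453 in CHOP-/- cells, at -3.49 (SE 0.09, adjusted p = 2.7e-17). The stress cofactor Nupr1 fell by 0.64 and the glutamine transporter Slc1a5 by 0.72. Between the MG132 arrays 25 members were higher and 6 lower.

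ATF4 and C/EBP proteins such as CHOP can bind a composite element as a pair, and a frequent form of it reads TGATGCAA, or TTGCATCA on the other strand. RefSeq promoter windows (GRCm38.p6, 250 bases before to 50 after each annotated start) were searched for these letters on both strands. They occurred in 294 of 32851 windows (0.895%), in 64 of 8956 tested autosomal genes with a window (0.715%), in 27 of 2551 genes higher in CHOP-/- cells (1.06%) and in 12 of 2436 lower (0.493%). At least 2-fold, they occurred in 9 of 427 higher (2.11%) and 5 of 475 lower genes (1.05%). Of the 27 ATF4 targets with a window 8 held the element, a list built from genes some of which are known for it. A match describes the letters and not a bound site. The 5 stretches below are shown because genes that carry the same letters lay on both sides of 0. Capitals mark the element, and each stretch is written in the direction of transcription.
Chac1 (chr2:119351019-119351086, plus strand): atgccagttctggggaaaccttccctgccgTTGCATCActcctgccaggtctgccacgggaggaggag
Herpud1 (chr8:94386287-94386354, plus strand): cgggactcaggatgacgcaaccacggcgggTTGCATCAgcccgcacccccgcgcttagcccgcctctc
Slc7a11 (chr3:50443623-50443709, minus strand): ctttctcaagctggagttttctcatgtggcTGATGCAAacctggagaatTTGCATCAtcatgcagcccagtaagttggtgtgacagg
Nupr1 (chr7:126625543-126625610, minus strand): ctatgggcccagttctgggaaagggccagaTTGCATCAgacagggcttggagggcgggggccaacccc
Vldlr (chr19:27216790-27216857, plus strand): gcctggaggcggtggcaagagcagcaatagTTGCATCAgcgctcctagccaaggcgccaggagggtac

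Chac1 and Herpud1, an ER membrane protein of protein degradation, rose by 1.43 and 0.67, with Herpud1 reading 2370, 2807, 2722 and 2576 in WT and 4042, 4184, 4121 and 4316 in CHOP-/- cells. Slc7a11, the cystine transporter, which holds the element on both strands, rose by 0.29 (SE 0.12, adjusted p = 0.047), from 94, 134, 150 and 148 to 147, 181, 152 and 172, with overlapping groups. Nupr1 fell by 0.64 and Vldlr fell by 3.49. Of the other 3 matching genes, Slc1a4 rose by 0.44, Fgf21 by 1.23 and Atf3 by 0.32, so that 6 of the 8 were higher and 2 lower.

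Of 25 ER chaperones and genes of ER-associated degradation 6 rose and 11 fell, or 4 and 7 after median centring, with a median of -0.13. Hspa5, which encodes the chaperone BiP, read 26423, 28197, 33370 and 27870 in WT and 25515, 27226, 29707 and 25639 in CHOP-/- cells, at -0.10 (SE 0.07, adjusted p = 0.23), and Hsp90b1 stood at -0.07. Dnajb9, a co-chaperone of BiP, fell by 1.07, Sel1l, a subunit of the degradation complex, by 0.89 and the disulfide isomerase Pdia6 by 1.05 (-0.38 as an average of its probe sets), whereas the chaperone Hyou1 rose by 0.96. Heat shock proteins gave 6 higher and 6 lower of 23. Hspa1a (-0.74), Dnajb4 (-0.78) and the co-chaperone Bag3 (-0.97) fell and the small heat shock protein Hspb1 (0.60) rose.

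Among the 33 tested subunit genes of the 26S proteasome 22 rose and 1 fell, or 16 and 1 after median centring. Their median was 0.16. The lid subunit Psmd7 rose by 0.49 and the catalytic subunit Psmb5 by 0.28. Aminoacyl-tRNA synthetases gave 10 higher and 2 lower of 18, or 8 and 1 after median centring, with a median of 0.14, among them Tars (0.72), Kars (0.56), Aars (0.37) and Gars (0.26). Mars1, the methionine enzyme, fell from 7199, 7669, 7845 and 7874 to 4479, 4295, 4329 and 4302, at -0.81 (SE 0.04, adjusted p = 3.7e-12), and Wars, at -0.04, did not pass. Of 10 genes of MHC class I and the immunoproteasome 7 rose and the other 3 did not pass the test, with a median of 0.57. They include H2-K1 (0.64; 1.34 as an average of its probe sets), H2-D1 (0.49; 0.76 without suffixed probe sets), B2m (0.37), Tapbp (0.77) and Tapbpl (1.69; 1.12 as an average), and all act in loading peptides for display at the cell surface. Near-identical class I genes can share probe sequence, so H2-K1 and H2-D1 may not be separate measurements.

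Immediate early genes were more often lower than higher in CHOP-/- cells. They encode AP-1, EGR and KLF factors that rise within minutes of serum or stress signals. Of 24 tested 15 fell and 4 rose, with a median of -0.30. Egr1 read 19224, 20958, 18913 and 16357 in WT and 7377, 9834, 7466 and 8289 in CHOP-/- cells, at -1.20 (SE 0.09, adjusted p = 2.4e-10). Klf4 read 4208, 4272, 3649 and 4040 against 702, 747, 761 and 785, at -2.41 (SE 0.06), and Junb, Jun, Klf6 and Egr2 fell by 1.40, 0.87, 0.90 and 2.25. Fos, at -0.08 with overlapping groups, did not pass the test. Between the MG132 arrays the list gave 10 higher and 8 lower.

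NF-kB and chemokine genes gave 10 higher and 5 lower of 19, and 6 rose at least 2-fold. The chemokine gene Ccl2, which attracts monocytes, read 355, 470, 417 and 285 in WT and 3042, 2876, 2958 and 3019 in CHOP-/- cells, at 2.93 (SE 0.10, adjusted p = 1.1e-15), and the neutrophil chemokine Cxcl1 340, 334, 350 and 280 against 2900, 2238, 2368 and 2512, at 2.88 (SE 0.09). Ccl7 rose by 2.26, the inhibitor gene Nfkbie by 2.16 and Cxcl12 by 0.90. Cxcl5 fell by 2.34 and Nfkbia, the inhibitor most often used as a readout of NF-kB, by 0.21. Interferon response genes gave 7 higher and 4 lower of 16, with Gbp3 (1.39; 0.89 with 64 added) and Cxcl10 (1.02) higher and Ifit2 (-0.82) and Rtp4 (-1.32; -0.64 as an average of its probe sets) lower.

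Genes of cell division showed no common direction. Mitotic genes gave 6 higher and 11 lower of 26, or 4 and 6 after median centring and 6 and 14 after quantile normalisation, and between the MG132 arrays 15 were higher and 4 lower. DNA replication genes gave 10 higher and 6 lower of 30, with a median of 0.03 that was -0.01 after quantile normalisation. Cyclins and inhibitors of the G1 phase gave 6 higher and 6 lower of 16: cyclin D1 (Ccnd1) fell by 0.68 and cyclin D2 (Ccnd2) rose by 0.61, its kinase Cdk6 rose by 0.89, and of the inhibitors Cdkn1b fell by 0.42 while the imprinted Cdkn1c rose by 2.75. Cdkn1c read 52.3, 9.99, 82.9 and 23.7 in WT and 282, 339, 349 and 352 in CHOP-/- cells. Of 20 targets of p53 and regulators of senescence 8 rose and 6 fell. The INK4 inhibitor Cdkn2b rose by 1.01, Sesn2 by 0.85 and Zmat3 by 0.57, Perp fell by 1.58, and Cdkn2a did not pass the test at 0.45 (adjusted p = 0.098).

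Apoptosis regulators gave 8 higher and 8 lower of 20, or 8 and 4 after median centring. Pmaip1, the BH3-only protein NOXA, read 1039, 961, 944 and 968 in WT and 423, 355, 441 and 362 in CHOP-/- cells, at -1.28 (SE 0.07, adjusted p = 8.6e-12). Bok rose by 0.68 and Casp12, an ER-associated caspase, by 0.89.

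Antioxidant genes under NRF2 gave 7 higher and 4 lower of 15, although Nfe2l2 itself was lower. The glutathione transferase Gsta4, which detoxifies products of lipid peroxidation, read 119, 136, 182 and 112 in WT and 2596, 2461, 2717 and 2501 in CHOP-/- cells, at 4.09 (SE 0.11, adjusted p = 4.3e-17), and Gstm2 rose by 1.65. Haem oxygenase (Hmox1) fell by 0.89, thioredoxin reductase (Txnrd1) by 0.46, and Nqo1 stood at 0.06 and did not pass. Oxidative phosphorylation genes were higher in 18 of 27 and lower in 3, or 15 and 1 after median centring, with small differences: the median was 0.20, Uqcrc1 rose by 0.43 and Ndufa9 by 0.39. Cholesterol and fatty acid synthesis gave 14 higher and 5 lower of 23, with Sqle at 0.47 and the feedback regulator Insig1 at -0.40. Glycolysis gave 7 higher and 4 lower of 16. Pdk1, which shuts pyruvate out of mitochondria, fell from 3018, 2822, 2825 and 2911 to 867, 880, 992 and 897, at -1.66 (SE 0.08), and Pfkfb3 rose by 1.20.

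Of 12 metallothioneins and xenobiotic enzymes 2 rose and 4 fell. The dioxin receptor gene Ahr (-1.18) fell together with its repressor Ahrr (-2.57) and with Tiparp (-1.22), both known as its targets, while Cyp1b1 did not pass the test. The zinc exporter gene Slc30a1 fell by 1.25 and Mt2 rose by 0.96. Lysosomal genes gave 2 higher and 7 lower of 18 (the 2 higher calls were lost after median centring), with cathepsins D and Z (Ctsd, Ctsz) at -0.62 and -0.67. Cytosolic ribosomal proteins gave 2 higher and 1 lower of 17, or 1 and 3 after quantile normalisation and 1 and 1 after median centring.

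**Figure D4:**
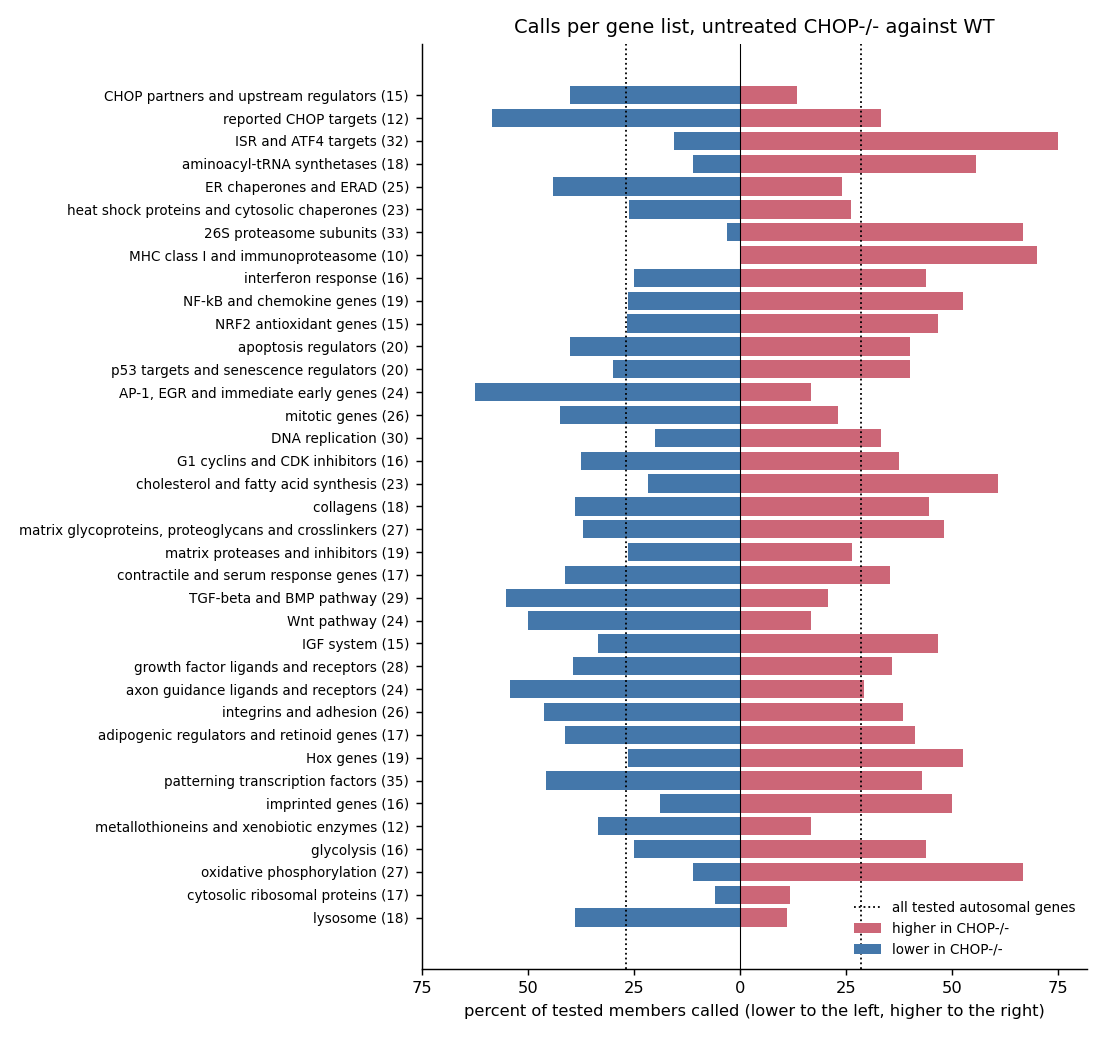
Bars give the percent of tested members of each gene list called higher (red, right) or lower (blue, left) in untreated CHOP-/- cells, with the number tested in brackets and dotted lines at the shares of all tested autosomal genes (28.6% and 26.9%). The ATF4 targets (24 of 32 higher), the proteasome subunits (22 of 33) and the MHC class I genes (7 of 10) reach far to the right, and immediate early genes (15 of 24 lower) and BMP genes (16 of 29) far to the left.

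Mars1 lies next to Ddit3 on the chromosome. Of the 20 tested genes nearest to Ddit3, 10 on each side, 8 were called (40.0%), 4 higher and 4 lower, against 55.5% of all genes. The largest called difference was that of Arhgef25, which fell by 0.82 (-0.42 as an average of its probe sets, -0.28 without suffixed ones). Stat6 fell by 0.50 and Cdk4 rose by 0.20. The differences were also summarised by chromosome. On chromosome 8, 76.0% of tested genes lay above 0, with a median of 0.26 and 325 called higher against 79 lower. On chromosome 12, 26.1% lay above 0, with a median of -0.21 and 42 higher against 207 lower. Chromosome 15 (median 0.22) and chromosome 9 (0.17) resembled the former, and chromosome 1 (-0.18), chromosome 7 (-0.15) and chromosome 13 (-0.15) the latter, whereas the median of the X chromosome was 0.01. Between the MG132 arrays the medians were 0.27 on chromosome 8, 0.23 on chromosome 15, -0.20 on chromosome 12 and -0.23 on chromosome 1.

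The genotype difference was also taken between the MG132 arrays. Its size there comes from other arrays than the untreated difference, but both share the estimate of spread, the choice of probe sets and the filter on low signals, which used all 16 arrays. There 6507 genes were called (58.9%), 3403 higher (30.8%) and 3104 lower (28.1%), of which 483 (4.38%) and 692 (6.27%) reached 2-fold, and in 53.4% of genes the groups did not overlap. In the same direction, 4211 genes were called on both sets of arrays, which is 68.7% of the untreated and 64.7% of the treated calls, and 312 were called in opposite directions. Of the 1179 genes that differed at least 2-fold in untreated cells, 1047 (88.8%) were called the same way, 122 were not called and 10 were called the other way between treated arrays. The median absolute difference of these 1179 genes was 1.64 without and 1.41 with MG132. They were chosen by their untreated difference, which by itself favours a smaller treated one. Among the leading genes the treated differences were -7.19 for Coch, -7.79 for Mycn, 6.06 for Sprr1a, 6.01 for Crabp1 and 6.16 for Ndn.

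The size of the difference itself changed with treatment in a part of the genes. The interaction, the treated minus the untreated genotype difference, was called in 3127 genes (28.3%) and in 2107 of the 6129 untreated calls (34.4%; 1329 after median centring). Of these 2107 the treated difference was smaller in 801, larger in 597 and of opposite sign in 709. Choosing genes by their untreated call affects this split. The largest turn was that of Dynap, which read 19.3, 46.5, 50.7 and 18.5 in WT and 291, 271, 249 and 266 in CHOP-/- cells without treatment, and 1443 and 387 on average with it, a difference of 2.59 against -1.86 (interaction adjusted p = 3.5e-10). Fam13c turned from -2.07 to 1.23 (interaction adjusted p = 9.7e-10); its untreated difference was -1.35 as an average of its probe sets. The other 8 of the 10 genes that differed at least 2-fold in untreated cells and were called the other way under MG132 were Apobr, Dhrsx, Efnb2, Gxylt2, Procr, Sema4f, Socs2 and Tubb3.

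For several genes a difference present in untreated cells was smaller under MG132. Igf1 differed by 3.74 without and 0.98 with MG132, and troponin T (Tnnt2), a muscle gene, by 3.15 (1.73 as an average, 2.00 with 64 added) and 0.24, where the means were 230 in WT and 270 in CHOP-/- cells. Egr2 went from -2.25 to 0.07, with means of 63.3 and 67.8 under MG132, Carns1 from -2.999 to -0.89 and Lrrtm3 from -3.91 to -1.35. Bcl11b (-1.86 to 0.56) and Gjb5 (-2.89 to -0.71) did not pass the test between treated arrays. Their untreated differences were -1.18 and -1.63 with 64 added, and that of Bcl11b was -1.03 without suffixed probe sets. In the other direction Clba1 differed by 0.46 without and 2.76 with MG132. Krtap1-5 went from -1.51 to -4.88. Serpinb9g, Krt16 and Car6 passed the filter on low signals through the MG132 arrays and were near background in untreated cells, where their differences were 0.49, -0.92 and -0.90, calls that were lost when only the untreated arrays were fitted (adjusted p = 0.386, 0.0665 and 0.0803).

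**Figure D5:**
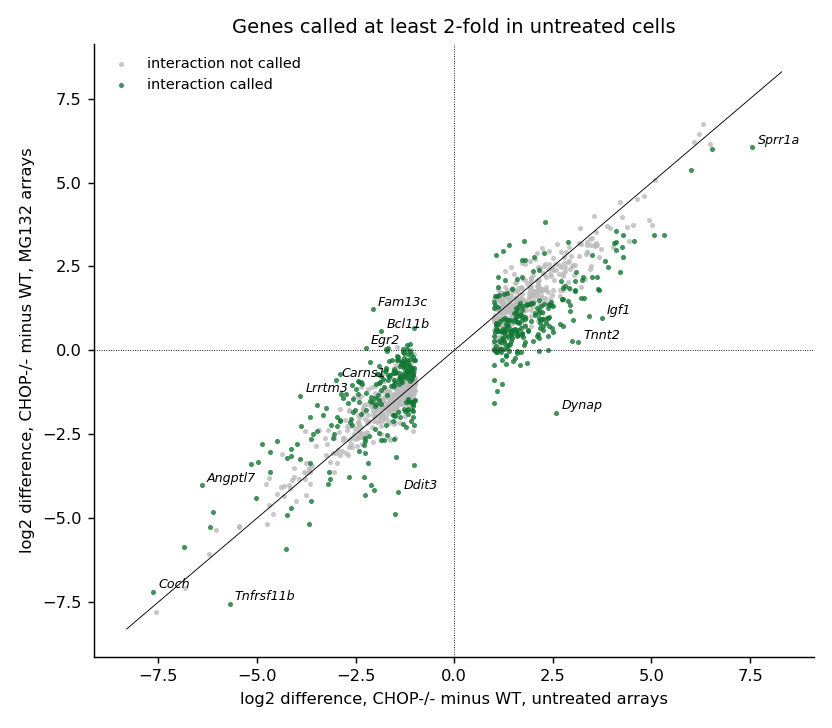
Each point is one of the 1179 genes that differed at least 2-fold in untreated cells, with the log2 difference of CHOP-/- minus WT on untreated arrays (x axis) and on MG132 arrays (y axis); green marks a called interaction (448 genes) and the line marks equal differences. Most points lie near the line, 1145 have the same sign on both axes, and Dynap and Fam13c lie across 0.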

How the data were processed

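The deposited table holds probe set signal intensities on a linear scale from an Affymetrix mouse 3' expression array, computed by the authors with MAS5, per the submitters' processing notes. The version and settings of MAS5 are not stated there. Each column had a mean of 1000 once 2% of its values were trimmed from either end, so the deposited arrays were already scaled to each other, and no further normalisation was applied. The number of arrays, 4 per group, limits the precision.

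Of 45101 probe sets, 34945 named 1 gene in the platform's probe table, and 34741 of them matched the gene reference by identifier. For each gene the probe set with the highest mean over 16 arrays was used. A gene was tested if its signal lay above the array median on at least 4 arrays, which left 11451 genes, 11039 of them autosomal. Values were taken as log2(signal + 16). limma 3.58.1 (R 4.3.3) fitted all 16 arrays with a coefficient for each group and a variance trend with level (12 residual and 7.654 prior degrees of freedom). Tests were two-sided, p-values were adjusted by BH across the 11451 genes, and 0.05 was the threshold. The scripts were tested on simulated data. Correlations are Pearson's r across genes.

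Samples were grouped by their titles. The gene lists, and the comparison itself, were chosen with earlier results of these data known. Named were Ddit3, Atf5 and Trib3, the 15 highest and 15 lowest non-overlapping calls (unnamed clones skipped), up to 8 genes per direction of the median and 75th percentile rule, up to 6 members per list by adjusted p with its defining members, the neighbours of Ddit3, and up to 8 interaction calls per direction. Slc7a11, Slc1a4 and Fgf21 were named for the promoter element. Vim, Col1a2, Stc2, Nupr1, Slc1a5, Hoxa9, Hoxa10, Hoxa11, Hoxa13 and Hoxc6 lie outside these rules and were chosen after their values were seen. For genes chosen in this way, values under other settings are not given. The second fibroblast name of S100a4 was counted once. Alternatives were 1 or 64 added to the signal, quantile normalisation, median centring, no filter, a filter at 8 arrays, a fit of the compared groups only, no variance trend, the average of all probe sets of a gene, no probe sets whose name carries a suffix for probes shared by several transcripts ("without suffixed probe sets"), the replicate number as a block, and leaving out each array.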

Additional observations from a re-analysis of the deposited data

Results flagged for a closer look

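In 4 of 66 groups checked (33 leading genes in 2 genotypes) an array stood apart from the other 3 of its group by Dixon's test, where chance gives about 1 in 20. They were Hand2 on replicate 3 of CHOP-/- (1000.2, against 1140 to 1167), and 3 signals near background, Sulf1 on replicate 2 (4.13), Tfap2b on replicate 1 (1.82) and Hoxd10 on replicate 4 (18.4).

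A test of the difference between the treated and the untreated genotype difference picked out 30 of the named genes. Among Ddit3, Atf5 and the leading genes, the interaction was -2.81 for Ddit3, 0.93 for Atf5, -1.49 for Sprr1a, -0.53 for Crabp1, -0.62 for Slc38a1, -1.64 for Hand2, -1.30 for Dcn and -1.86 for Tnfrsf11b. It was 0.44 for Coch, 0.99 for Cdo1, 2.38 for Angptl7, 0.92 for Stmn2, 1.29 for U90926, 1.77 for Rarres1, 0.63 for Plpp3 and 1.64 for Prss35. In Ddit3 and Tnfrsf11b the genotype difference was larger with MG132 and in the other 14 it was smaller. The leading genes were chosen for large untreated differences, which by itself favours smaller treated ones. Among genes called in untreated cells, the largest interactions, beside 3 genes given at the end, were -4.45 for Dynap, -3.37 for Krtap1-5, -2.91 for Tnnt2 and -2.76 for Igf1. Upward they were 3.30 for Fam13c, 2.56 for Lrrtm3, 2.42 for Bcl11b, 2.32 for Egr2, 2.30 for Clba1, 2.18 for Gjb5 and 2.11 for Carns1. Serpinb9g (-3.74), Krt16 (-3.53) and Car6 (-3.30) passed the filter on low signals through the MG132 arrays, and their untreated calls were lost when only the untreated arrays were fitted.

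Outside the autosomes, Xist stood at a mean of 10336 on the CHOP-/- arrays and 297 on the WT arrays, with the Y-linked transcripts in the opposite direction.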

How the results depend on the processing

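Leaving out each array in turn gave 2942 to 3142 genes higher and 2776 to 2939 lower (3156 and 2973 with all arrays), 558 to 582 and 599 to 622 at least 2-fold, 4032 to 4238 calls shared in direction with the MG132 arrays, 1860 to 2119 untreated calls with a called interaction, and a Ddit3 difference of -1.49 to -1.37. Over the other settings the counts were 2660 to 3303 and 2552 to 3051, 428 to 678 and 506 to 689, 3579 to 4360, and 1329 to 2308, with the low value of the last under median centring; the cause was not tested. Ddit3 ranged from -1.46 to -0.71 and stayed called, the low value being the average of both probe sets. Of the single-gene results over all alternatives, 6404 kept their direction and side of the threshold, 114 lost the call (36 genes) and 32 gained one. Reversed were, as averages of all probe sets, Cars (-0.15), Fn1 (-0.29), Gsr (-0.051) and Msmo1 (-0.15), and without suffixed probe sets Msmo1 (-0.76) and Psmb1 (-0.14). Same-numbered WT and CHOP-/- arrays correlated in their deviations from the group means at 0.091, 0.085, 0.161 and 0.109, against -0.169 to 0.120 for different numbers. These values do not decide whether the numbers are pairs, and the main fit did not use them as such. With the replicate number as a block, 3227 genes were higher, 3051 lower, 569 and 610 at least 2-fold, 4360 shared, 2308 with an interaction, and Ddit3 stood at -1.43. With 4 arrays per group of unstated origin, the comparison cannot attribute a difference to the genotype alone.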
